A study of Mus musculus with 8 samples.

Results

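The 10 mouse genes described here encode inhibitors that the RAS pathway induces against itself: the MAP kinase phosphatases Dusp1, Dusp4, Dusp5 and Dusp6, the Sprouty proteins Spry1, Spry2 and Spry4, their relatives Spred1 and Spred2, and Errfi1. Chromatin loops were taken as belonging to a gene when 1 of their 2 anchors lay within 2 kb of an annotated start of any of its transcripts. By this rule 333 of 249200 distinct loops belonged to the 10 genes. The loops came from Hi-ChIP, in which DNA contacts are captured around a chosen bound protein, here the transcription factors FOXA1 and HNF4G. Each factor was assayed in a cell line grown from the primary tumor of a KPC mouse, a pancreatic cancer model, and in a matched isogenic line from a liver metastasis (liver mets), so there were 4 groups with 2 replicates each. All cells were untreated, were labeled WT for genotype, and were grown in DMEM with serum. KPC mice develop tumors from engineered alleles switched on by a pancreatic Cre, a background that all 4 groups shared. Each context rested on 1 cell line, so cell line and context cannot be told apart.

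RAS proteins relay growth factor signals through the RAF, MEK and ERK kinases, and ERK activity induces genes whose products shut the cascade down again. DUSP proteins remove the activating phosphates from MAP kinases, Sprouty and SPRED proteins act higher up, near RAS and RAF, and ERRFI1 (also called MIG6) blocks the EGF receptor kinase. Such inhibitors are known to be part of the adaptation of tumor cells to a constantly active pathway.

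The 4 loop lists held 125623 loops for FOXA1 in liver mets, 104136 for FOXA1 in tumor, 78098 for HNF4G in liver mets and 76323 for HNF4G in tumor. Each list covered both replicates of its group, so no replicate spread exists and no test between groups was run. The read depth behind the lists is unknown. All intervals below are 95% intervals, cover counting error only, and treat loops as independent although loops at a gene share an anchor. Each loop carried a value, read here as the −log10 of an adjusted p, that ended at 20 and formed long runs of ties. Because the ties differed by list, equal values in different lists may rest on unequal evidence. Where 4 values follow each other below, FOXA1 comes before HNF4G, and liver mets before tumor for each factor.

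All 10 genes had loops in all 4 lists. For FOXA1 they had 193 loops together in liver mets (Poisson interval 167 to 222) and 166 in tumor (142 to 193), and for HNF4G 140 (118 to 165) and 124 (103 to 148). The median per gene was 18, 12.5, 10.5 and 11 loops, against 7, 6, 5 and 5 over the 10802 protein-coding genes with an anchor at a start. The genes were unequal. Dusp1 had the most loops in every list when its 2 anchors were counted together, although 1 of them is shared with Ergic1. From its other anchor alone it had 28, 31, 22 and 20, below the 29 of Dusp4 in FOXA1 liver mets and equal to the 22 of Dusp5 in HNF4G liver mets. Spry4 and Spred1 were among the lowest, with 2 to 6. The genes' loops made up 0.154%, 0.159%, 0.179% and 0.162% of the lists.

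**Figure D1:**
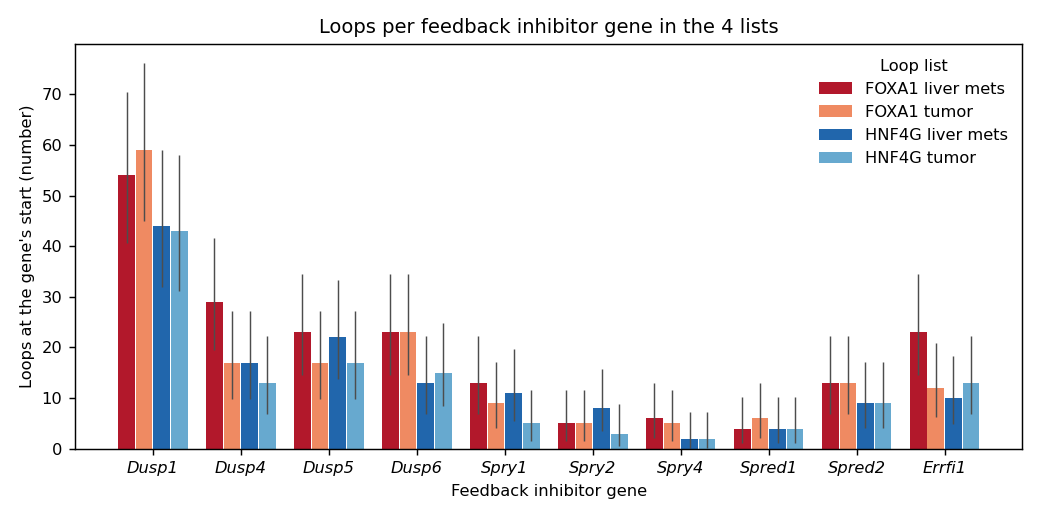
Number of loops at the start of each feedback inhibitor gene (vertical axis) in the 4 loop lists (bar colors), with exact Poisson 95% intervals as lines. The Dusp1 bars, 43 to 59 loops, include the anchor shared with Ergic1 and are the highest in each list, and Dusp4 and Errfi1 had their highest bars, 29 and 23, in FOXA1 liver mets.

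Dusp1 is an immediate early gene for a nuclear phosphatase. For FOXA1 it had 54 loops in liver mets and 59 in tumor, and for HNF4G 44 and 43. The intervals of all 4 counts overlapped. These loops left from 2 anchors on chromosome 17 of GRCm38. The proximal anchor, 26505682 to 26510379, covers the usual start and had 28, 31, 22 and 20 loops. The other, 26560499 to 26565338, covers starts of longer Dusp1 transcripts and also a start of Ergic1, a gene for a protein of the early secretory pathway, and had 27, 29, 23 and 24 loops. Loops of this second anchor cannot be assigned to either gene. From the proximal anchor, the partner with the highest value in every list lay 105 kb upstream, over an exon and a start of Ergic1 (26608455 to 26618362). Its values for FOXA1 were 4.74 in liver mets and 10.5 in tumor, and for HNF4G 7.52 and 20, the top of the scale. Tumor was therefore above liver mets for each factor. A second Ergic1 partner 96.3 kb upstream had values of 3.26, 2.63, 3.53 and 2.94. The nearest partner common to all lists lay 6.75 kb upstream, in an intron of the longer Dusp1 transcripts. The longest loop in more than 1 list reached 996 kb, from the shared anchor to the starts of Hmga1, a chromatin architectural protein, and AI413582. It was listed in both FOXA1 lists (3.89 in liver mets, 1.91 in tumor) and in neither HNF4G list. HNF4G tumor nevertheless had a loop of 1036 kb from the proximal anchor to a nearby anchor outside annotated genes (1.99).

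The stretch of the Dusp1 promoter before the RefSeq start (chr17:26508473-26508722, minus strand, GRCm38.p6) is shown because the proximal anchor covers it. The capitals mark a cyclic AMP response element (CRE, TGACGTCA), which 1.79% of 32817 RefSeq promoters of 300 bases hold. The stretches below it are 57 bases of the Ergic1 partners at 105 kb (chr17:26612073-26612129, plus strand) and 96.3 kb (chr17:26605993-26606049, plus strand), with the forkhead motif TGTTTAC, the recognition core of FOXA1, in capitals.
Dusp1 promoter: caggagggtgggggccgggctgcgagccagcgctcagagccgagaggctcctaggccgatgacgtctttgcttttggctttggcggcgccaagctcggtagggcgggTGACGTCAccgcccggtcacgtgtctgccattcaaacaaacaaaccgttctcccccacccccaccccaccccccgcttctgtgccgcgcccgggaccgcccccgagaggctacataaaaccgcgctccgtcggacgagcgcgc
Ergic1 partner at 105 kb: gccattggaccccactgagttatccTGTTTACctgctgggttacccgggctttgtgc
Ergic1 partner at 96.3 kb: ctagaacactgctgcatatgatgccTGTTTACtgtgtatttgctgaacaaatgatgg

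Dusp4, another nuclear MAP kinase phosphatase, had 29 loops for FOXA1 in liver mets and 17 in tumor, and 17 and 13 for HNF4G. They left from an anchor on chromosome 8 (34802093 to 34809752). Of the 17 FOXA1 tumor loops, 16 were also in the FOXA1 liver mets list. The difference between the FOXA1 lists lay in loops of 500 kb or more, of which there were 15 in liver mets and 4 in tumor, whereas shorter loops numbered 14 and 13. This split was chosen after the values were seen. Of those 15 loops, 8 had exactly the tied value of 1.87 of their list. Over all loops at protein-coding starts, loops of 500 kb or more were also 1.36 times as many in FOXA1 liver mets as in tumor, against 1.13 times for shorter ones. In the HNF4G lists there were 5 such Dusp4 loops in liver mets and 2 in tumor.

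Within 500 kb the 4 lists together offered 14 anchors upstream of Dusp4 and 6 downstream. Most partners of Dusp4 lay upstream, in 23, 14, 14 and 8 loops of the lists, in a stretch with long noncoding RNA genes and few protein-coding starts. There, 7 of the 37 distinct loops (18.9%) were in both FOXA1 lists and in HNF4G liver mets but not in HNF4G tumor. Over all loops at protein-coding starts that share was 3.01%. The strongest of the 7 Dusp4 loops reached 332 kb upstream to an exon of Gm45349 (34471982 to 34476473). Its FOXA1 values were 13.1 in liver mets and 7.77 in tumor, and its HNF4G value was 3.58 in liver mets. The partner 228 kb upstream followed the same pattern, with 4.74, 7.12 and 3.35. HNF4G tumor nevertheless reached other upstream anchors, such as those at 281 kb (3.43, not in HNF4G liver mets) and 276 kb (3.42). Of the 5 loops in all 4 lists, that to 116 kb upstream (34688612 to 34690771, outside annotated genes) had similar values of 2.38, 3.28, 2.57 and 2.26. The partner 188 kb upstream, over an exon of Gm34096, had 2.64, 1.56, 5.16 and 4.91, so its HNF4G values were above its FOXA1 values. The loop 6.85 kb downstream, inside Dusp4, had 8.12, 2.97, 0.75 and 1.99. The 116 kb partner held no forkhead match. The 188 kb partner is shown with its forkhead motif in capitals (chr8:34618506-34618562, plus strand, GRCm38.p6).
Dusp4 partner at 188 kb: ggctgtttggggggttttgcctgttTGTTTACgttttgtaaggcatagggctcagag

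**Figure D2:**
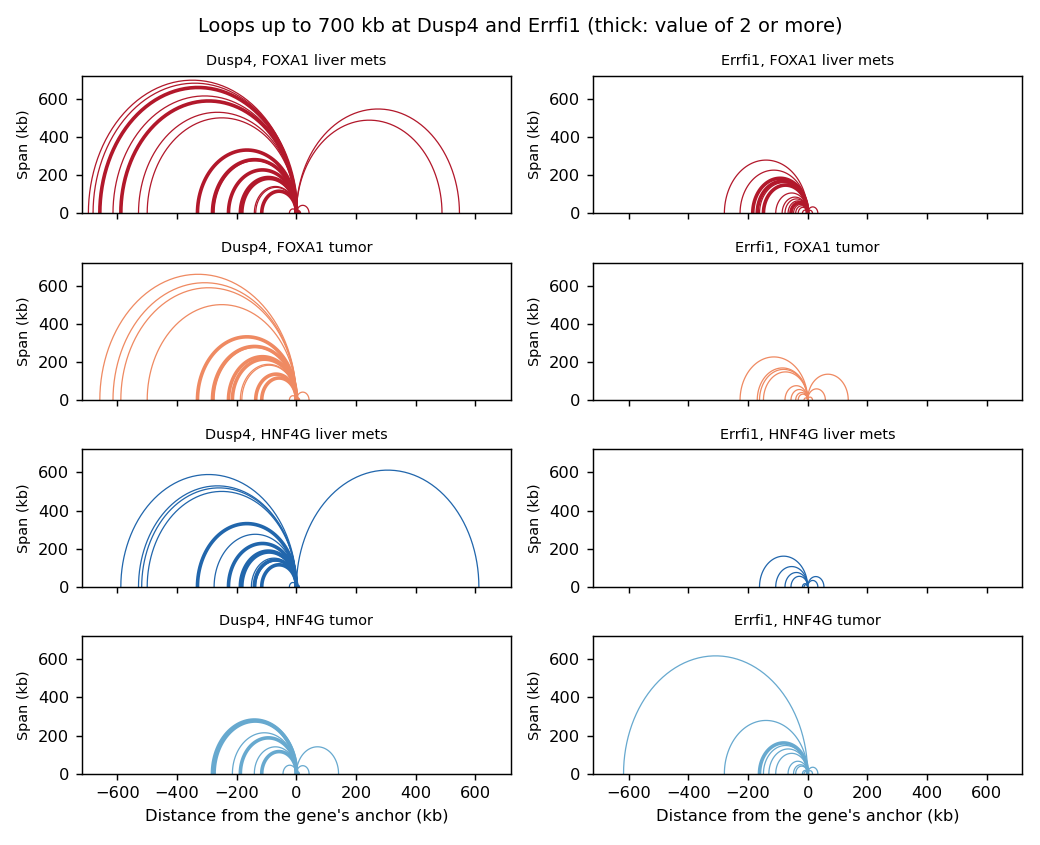
Loops of up to 700 kb at Dusp4 (left) and Errfi1 (right) in the 4 lists, drawn as arcs by the distance of the partner from the gene's anchor (horizontal axis, kb, negative is upstream) with their span as height (kb). Thick arcs have a value of 2 or more. Dusp4 had 11, 7, 6 and 4 such loops over the 4 lists at any span, and Errfi1 had 5, 0, 0 and 1.

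Dusp5, a nuclear phosphatase specific for ERK, had 23 and 17 loops for FOXA1 in liver mets and tumor and 22 and 17 for HNF4G, from an anchor on chromosome 19 (53527268 to 53533896). It was the gene with the highest share of loops common to all lists, 10 of 31 (32.3%, Wilson interval 18.6 to 49.9). Partners clustered upstream. The one at 125 kb (53403267 to 53407028, outside annotated genes) had values of 5.41, 2.12, 4.34 and 10.4, highest in HNF4G tumor. The one at 117 kb had 4.67, 6.65, 6.11 and 1.36, lowest in HNF4G tumor. The one at 68.9 kb, over exons and starts of the noncoding Mirt1 and 4833407H14Rik, had 5.51, 2.13, 3.09 and 1.12. In HNF4G tumor the neighboring partners at 125 and 117 kb thus stood at opposite ends of their own ranges. The longest loop in more than 1 list spanned 1728 kb, to an intron of Acsl5, and was in both liver mets lists (3.99 for FOXA1, 1.99 for HNF4G) and in neither tumor list. Both tumor lists nevertheless reached nearby anchors. FOXA1 tumor had a loop of 1724 kb to a start of Acsl5 (1.91), and HNF4G tumor had a loop of 1702 kb to an exon of Gucy2g (1.99).

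The Dusp5 promoter before the RefSeq start (chr19:53528895-53529144, plus strand, GRCm38.p6) held a pair of adjacent CArG boxes, the element read by serum response factor, shown in capitals. Of the 32817 RefSeq promoters, 1.63% held at least 1. CArG was added to the motifs after the promoters had been seen. The 57 bases below it come from the partner at 117 kb (chr19:53414453-53414509, plus strand), with the forkhead motif in capitals.
Dusp5 promoter: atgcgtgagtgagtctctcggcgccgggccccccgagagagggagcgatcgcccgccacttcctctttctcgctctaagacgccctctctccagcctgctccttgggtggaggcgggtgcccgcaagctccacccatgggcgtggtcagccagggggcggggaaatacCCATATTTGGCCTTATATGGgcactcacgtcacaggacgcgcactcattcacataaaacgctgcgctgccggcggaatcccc
Dusp5 partner at 117 kb: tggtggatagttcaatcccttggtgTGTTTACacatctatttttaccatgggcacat

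Dusp6, the cytoplasmic ERK phosphatase, had 23 loops in each FOXA1 list, and 13 and 15 for HNF4G in liver mets and tumor, from 2 adjacent anchors on chromosome 10 (99260934 to 99264163 and 99266877 to 99269994). Its highest value belonged to a partner 19.4 kb upstream, over an exon of Gm34777 (99241076 to 99245237). The FOXA1 values were 9.16 in liver mets and 2.53 in tumor, and the HNF4G values 2.80 and 2.20, so FOXA1 liver mets stood above the other 3 lists. The 2 Dusp6 anchors were also joined to each other over 5.89 kb, with 4.75, 1.5, 0.34 and 0.40. A loop of 155 kb to the starts of Galnt4 and Poc1b was in all 4 lists with 2.24, 1.47, 1.65 and 1.64. In the HNF4G lists 4 Dusp6 loops were shared, 30.8% of those in liver mets and 26.7% of those in tumor, whereas the FOXA1 lists shared 14 of 23. Over all protein-coding starts the HNF4G lists shared 34.2% and 33.3%, and the FOXA1 lists 33.9% and 39.9%. A partner joined to each of the 2 Dusp6 anchors counts as separate loops. The 19.4 kb partner is shown because it carried that value, with the forkhead motif in capitals (chr10:99245016-99245072, minus strand, GRCm38.p6).
Dusp6 partner at 19.4 kb: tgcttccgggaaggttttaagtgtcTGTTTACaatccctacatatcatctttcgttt

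Spry1 had 13 and 9 loops for FOXA1 in liver mets and tumor and 11 and 5 for HNF4G, from an anchor on chromosome 3 (37639025 to 37643823). Nearly all partners were downstream: 0 of 13, 0 of 9, 1 of 11 and 0 of 5 lay upstream. Within 500 kb the 4 lists together offered 2 anchors upstream and 17 downstream. The partner 333 kb downstream, in an intron of the noncoding Gm20755 (37972425 to 37976567), had values of 3.27 and 3.57 in the FOXA1 and HNF4G liver mets lists and 1.80 and 1.90 in the FOXA1 and HNF4G tumor lists. A neighboring partner 322 kb downstream had 7.65 in FOXA1 liver mets and 1.90 in HNF4G tumor and was in no other list. Spry2 had 5, 5, 8 and 3 loops, from chromosome 14 (105896469 to 105898892). Its partner 308 kb downstream, over the noncoding 9330188P03Rik, had 1.68, 3.32, 1.91 and 1.88, and the one 24.6 kb upstream had 0.58, 1.25, 0.15 and 0.96. These were the only Spry2 loops in all 4 lists. Over the whole anchor, the upstream Spry2 partner held a match to the HNF4 motif CAAAGTCCA, found in 1 of the 21 partners in all 4 lists that were chosen for naming and searched, and it also held the forkhead motif. Both stretches are shown with the motif in capitals, at chr14:105923928-105923986 (minus strand) and chr14:105921880-105921936 (plus strand), beside the Spry1 partner at 333 kb (chr3:37973117-37973173, plus strand), all GRCm38.p6.
Spry2 partner at 24.6 kb, HNF4 motif: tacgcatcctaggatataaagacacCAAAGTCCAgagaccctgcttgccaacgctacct
Spry2 partner at 24.6 kb, forkhead motif: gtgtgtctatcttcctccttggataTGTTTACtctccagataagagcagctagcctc
Spry1 partner at 333 kb: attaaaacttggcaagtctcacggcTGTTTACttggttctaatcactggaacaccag

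Spred1 and Spred2 bind neurofibromin, a RAS GTPase-activating protein, and bring it to the membrane. Spred1 had 4 and 6 loops for FOXA1 in liver mets and tumor and 4 in each HNF4G list, from chromosome 2 (117119015 to 117121707). Of its 9 possible partners within 500 kb, 4 (44.4%) were joined to it in any list, near the 45.3% over all protein-coding starts. The 2 loops in all 4 lists went to adjacent anchors over the noncoding Gm29340, 148 and 144 kb upstream. The former had values of 2.05, 1.41, 1.64 and 1.54, a narrow range. Spred2 had 13 loops in each FOXA1 list and 9 in each HNF4G list, from chromosome 11 (19923339 to 19927056). Its common partners lay 5.11 kb upstream (0.70, 1.81, 1.97 and 1.78) and 75.8 kb upstream (0.71, 0.43, 0.15 and 0.17), both outside annotated genes. Loop numbers of Spred2 were equal in liver mets and tumor for each factor, with intervals of the ratio of 0.427 to 2.34 for FOXA1 and 0.352 to 2.84 for HNF4G.

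Spry4 had 6, 5, 2 and 2 loops and was the only gene of the 10 with none in all 4 lists. Its anchor lies on chromosome 18 (38601076 to 38603042). The loop of 145 kb to an intron of Arhgap26 was in FOXA1 liver mets (2.04) and HNF4G tumor (1.55). A loop of 265 kb to a start of Fgf1, a ligand of the FGF receptors, was in the FOXA1 (1.62) and HNF4G (1.86) liver mets lists and in neither tumor list. FOXA1 tumor nevertheless reached a nearby anchor, with a loop of 251 kb to an intron of Arhgap26 and Fgf1 (1.69). That loop was also in FOXA1 liver mets (1.59). Of 36 possible partners of Spry4 within 500 kb, 11 (30.6%) were joined to it in any list, against 45.3% over all protein-coding starts.

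Errfi1 had 23 loops for FOXA1 in liver mets and 12 in tumor, and 10 and 13 for HNF4G, from chromosome 4 (150852222 to 150858633). Its partners lay mostly upstream, in 20, 9, 7 and 11 loops. Within 500 kb the 4 lists together offered 26 anchors upstream and 12 downstream. The only loop in all 4 lists reached 161 kb upstream (150692255 to 150695928, outside annotated genes), with values of 1.28, 1.49, 1.65 and 4.55, highest in HNF4G tumor. The loop of 148 kb to a neighboring anchor had 5.10 in FOXA1 liver mets, 1.41 in FOXA1 tumor and 1.56 in HNF4G tumor and was not in HNF4G liver mets. Loops of 500 kb or more numbered 6 in FOXA1 liver mets and 0 in FOXA1 tumor, and loops under 500 kb numbered 17 and 12. Of those 6, 4 had exactly the tied value of 1.87. For HNF4G there were 2 and 1 of 500 kb or more and 8 and 12 shorter. The longest in more than 1 list, 279 kb to an exon of Rere, was in FOXA1 liver mets and HNF4G tumor.

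The Errfi1 promoter before the second of its RefSeq starts (chr4:150854820-150855069, plus strand, GRCm38.p6) held the same CRE as that of Dusp1, in capitals. No other feedback inhibitor with a RefSeq promoter entry held it.
Errfi1 promoter: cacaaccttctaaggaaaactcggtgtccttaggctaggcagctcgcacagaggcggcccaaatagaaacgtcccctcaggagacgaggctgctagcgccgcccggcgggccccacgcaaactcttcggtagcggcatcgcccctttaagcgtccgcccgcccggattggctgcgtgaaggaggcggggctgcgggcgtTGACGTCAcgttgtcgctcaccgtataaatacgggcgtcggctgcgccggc

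The study set liver mets against the primary tumor for each factor. For FOXA1 the 10 genes together had 1.16 times as many loops in liver mets (exact interval 0.940 to 1.44), beside 1.21 times for the whole lists. As a ratio of shares of the lists, the 10 genes together gave 0.964 (0.779 to 1.19). Without Dusp1 the ratio of loop numbers was 1.30 (1.00 to 1.69). That interval still held the 1.21 of the whole lists but lay just above 1. Dusp4 (ratio 1.71, 0.907 to 3.31) and Errfi1 (1.92, 0.915 to 4.23) had at least 1.5 times more loops in liver mets, and Spred1 (0.667, 0.138 to 2.81) at least 1.5 times more in tumor. All 3 intervals included 1. Of the 10 genes, 2 were thus past 1.5 times toward liver mets and 1 toward tumor. Over all 6876 protein-coding genes with at least 10 loops in both lists together, 25.3% were past it toward liver mets and 8.62% toward tumor. For HNF4G the ratio over the 10 genes was 1.13 (0.880 to 1.45), beside 1.02 for the whole lists. Spry1 (2.20, 0.705 to 8.08) and Spry2 (2.67, 0.640 to 15.6) were past 1.5 times toward liver mets, 2 of the 8 genes with enough loops, and 0 were past it toward tumor. The shares over all protein-coding genes were 15.6% toward liver mets and 19.3% toward tumor.

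**Figure D3:**
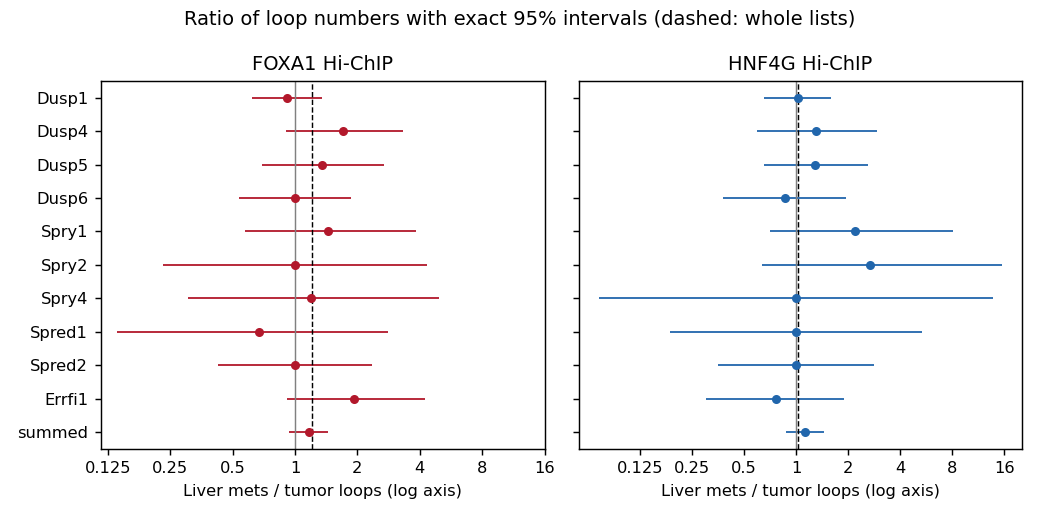
Ratio of liver mets to tumor loop numbers (horizontal log axis) for each feedback inhibitor gene and for their sum, for FOXA1 (left) and HNF4G (right), with exact 95% intervals. The dashed line is the ratio of the whole lists (1.21 and 1.02), and every interval includes 1.

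Restricting the lists to values of 2 or more left 39 and 19 loops for FOXA1, in liver mets and tumor, and 26 and 18 for HNF4G. The FOXA1 ratio became 2.05 (1.16 to 3.76), beside 1.34 (1.30 to 1.39) over all loops at protein-coding starts under the same minimum. Dusp4 gave 11 and 7 of these FOXA1 loops in liver mets and tumor, Dusp6 6 and 2, Dusp5 6 and 3, Errfi1 5 and 0, and Spry1 4 and 0. Dusp1 gave 5 and 5, and Spry2 went the other way with 0 and 2. The HNF4G ratio was 1.44 (0.762 to 2.80) among such loops, beside 0.938 (0.898 to 0.979) over all protein-coding starts, with Dusp5 giving 6 in liver mets and 1 in tumor.

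Comparing the factors within a context, the 10 genes had 1.38 times as many loops for FOXA1 as for HNF4G in liver mets (1.10 to 1.73), where the whole lists differed by 1.61 times. In tumor the ratio was 1.34 (1.05 to 1.70), beside 1.36 for the whole lists. In liver mets Dusp4, Dusp6 and Errfi1, 3 of 8 genes, were past 1.5 times toward FOXA1, where 52.3% of all genes were, and Spry2, 1 of 8, toward HNF4G, where 3.63% were. Errfi1 had the largest of these ratios among the 8 genes, 2.30 (1.05 to 5.41). In tumor Dusp6, Spry1 and Spred1, 3 of 8 genes, were past it toward FOXA1, where 34.8% of all genes were, and 0 of 8 toward HNF4G, where 8.17% were. The liver mets and tumor comparisons use the same lists as the comparisons between contexts.

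Loops at the feedback inhibitor genes recurred between lists. Of the 333 distinct loops, 45 (13.5%, Wilson interval 10.3 to 17.6) were in all 4 lists, where 5.5% of the 161537 distinct loops at protein-coding starts were. A further 45 were in 3 lists, 65 in 2 and 178 (53.5%) in 1, against 66.0% in 1 list for all protein-coding starts. Dusp1 gave 17 of the common loops, Dusp5 10, Dusp4 5, Dusp6 and Spry1 3 each, Spry2, Spred1 and Spred2 2 each, Errfi1 1 and Spry4 0. The FOXA1 lists shared 99 loops of the 10 genes, 51.3% of those in liver mets and 59.6% of those in tumor, against 33.9% and 39.9% over all protein-coding starts. The HNF4G lists shared 62 of the 140 loops in liver mets and of the 124 in tumor, where 34.2% and 33.3% were shared over all protein-coding starts.

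Short loops were common to all lists more often than long ones, for these genes and for all protein-coding starts. Among loops under 20 kb, 12 of 18 at the feedback inhibitor genes were in all lists (66.7%, 43.7 to 83.7), against 34.2% at all protein-coding starts. From 20 to 100 kb it was 20 of 73 (27.4%, 18.5 to 38.6) against 11.7%, and from 100 to 500 kb 13 of 124 (10.5%, 6.23 to 17.1) against 2.17%. Above 500 kb it was 0 of 118, which allows up to 3.15%, against 0.173%. The share also moved with the width of the anchor at the start, a split chosen after the values were seen. The 12 anchors of the 10 genes had a median width of 4208 bases, against 2496 for all 11729 anchors near protein-coding starts. At anchors of 5000 bases or more, those of Dusp4, Dusp5 and Errfi1, 16 of 99 loops were common (16.2%, 10.2 to 24.7) against 11.7% of all such loops. At anchors of 3000 to 5000 bases it was 12.5% (8.61 to 17.8) against 5.57%, and below 3000 bases 11.8% (4.67 to 26.6) against 2.76%. The part of anchor width in the recurrence was not tested further.

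**Figure D4:**
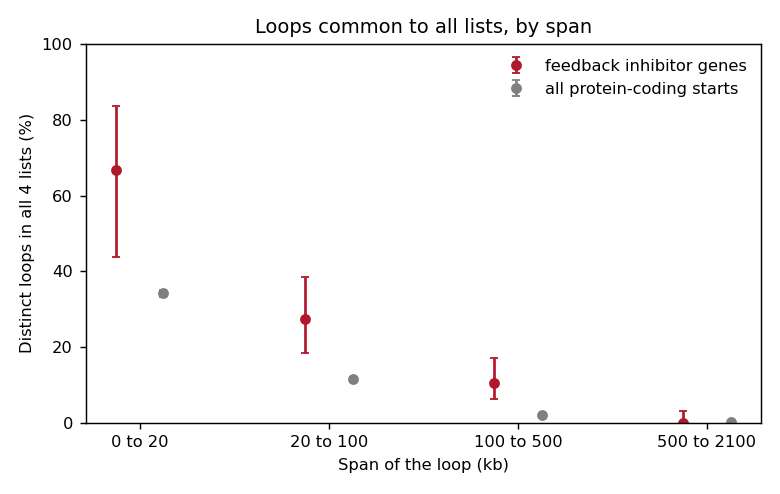
Share of distinct loops found in all 4 lists (vertical axis, %) by the span of the loop (horizontal axis, kb), for the feedback inhibitor genes (red) and for all protein-coding starts (gray), with Wilson 95% intervals. In the 3 shorter ranges the genes' shares, 66.7%, 27.4% and 10.5%, lay above 34.2%, 11.7% and 2.17%.

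The span of the genes' loops was near that of other promoter loops. The median for FOXA1 was 161 kb in liver mets and 136 kb in tumor, and for HNF4G 138 and 117 kb, against 178, 153, 127 and 146 kb over all protein-coding starts. Dusp4 had the longest median of the DUSP genes in FOXA1 liver mets, 500 kb, and Dusp5 the shortest, 93.2 kb. Loops of 100 kb or more made up 63.2%, 56.0%, 57.1% and 52.4% of the genes' loops, against 64.5%, 61.0%, 56.0% and 59.6%. The partner held a protein-coding start in 24.9%, 27.7%, 29.3% and 27.4% of the genes' loops. Of all loops at protein-coding starts, 33.0%, 34.1%, 35.6% and 37.3% had such a start at both anchors. This second measure counts a loop between promoters once and not from each end, so the shares are not like for like. Without Dusp1, whose partners include several Ergic1 starts, the genes' share was 15.8%, 15.9%, 17.7% and 17.3%. Partners of the genes other than Dusp1 were thus mostly outside protein-coding starts. In FOXA1 liver mets 5 of 29 loops at Dusp4, 3 of 23 at Dusp5, 7 of 23 at Dusp6 and 1 of 23 at Errfi1 had such a partner. For the Sprouty genes it was 2 of 13 at Spry1, 0 of 5 at Spry2 and 2 of 6 at Spry4. Spred1 had 1 of 4 and Spred2 1 of 13.

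**Figure D5:**
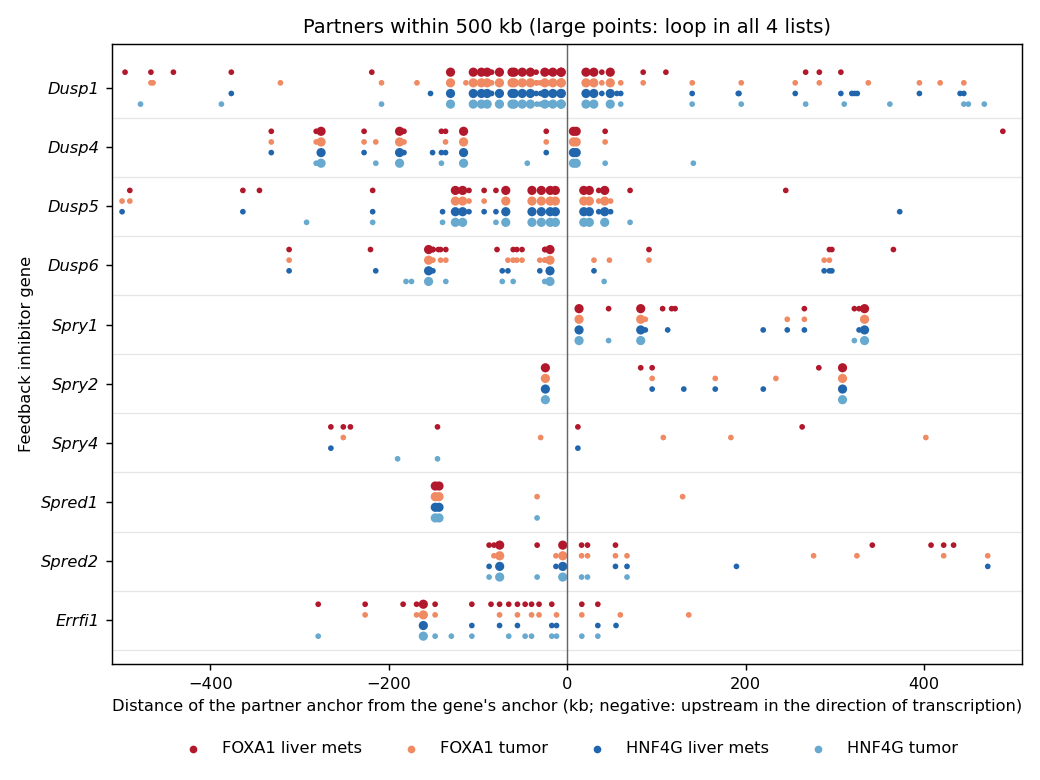
Distance of each partner anchor from the gene's anchor (horizontal axis, kb, negative is upstream in the direction of transcription) for the 10 genes and 4 lists (colors), within 500 kb. Dusp1 distances are taken from whichever of its 2 anchors the loop used, the loop joining the 2 anchors of Dusp1 or of Dusp6 is left out, and large points mark loops in all 4 lists. Dusp4 and Errfi1 partners lay mainly upstream and Spry1 partners only downstream in this range.

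Not every anchor near a gene was joined to it. Of the pairs of a gene's anchor with another anchor within 100 kb, Dusp5 was joined in 12 of 13, 11 of 13, 12 of 13 and 10 of 13 in the 4 lists, and Dusp1 in 21, 24, 21 and 20 of 28. Over all protein-coding starts the shares were 47.7%, 44.4%, 38.5% and 36.2%. Spry4 was joined in 1, 1, 1 and 0 of 6. Within 500 kb, Dusp4 was joined in 14, 13, 12 and 11 of 20 pairs, against 23.8%, 21.0%, 16.7% and 16.6% over all protein-coding starts. On its upstream side Dusp4 reached 10, 10, 10 and 7 of 14 anchors, and on its downstream side 4, 3, 2 and 4 of 6.

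Forkhead and AP-1 matches in the partners were about as frequent as in other anchors. In the middle 1000 bases of the 166 partners without an annotated start, the forkhead motif was found on either strand in 21.1% (15.6 to 27.9), against 23.7% of all 16246 such anchors. For the AP-1 motif TGANTCA, read by FOS and JUN proteins, it was 50.6% against 50.3%. The HNF4 motif was found in 0.602% (0.106 to 3.33) against 1.95%. The ETS motif CCGGAAG, read by effectors of ERK such as ETV4 and ETV5, was found in 9.04% (5.55 to 14.4) against 5.09%. Among the 86 such partners joined in 2 or more lists it was in 11 (12.8%, 7.29 to 21.5), and among the 27 joined in all 4 lists in 6 (22.2%, 10.6 to 40.8). Those 27 held the forkhead motif in 18.5% and the AP-1 motif in 48.1%. The share in other anchors joined in all 4 lists was not computed, so these subsets have no matching background. In the RefSeq promoters, which cover 8 of the 10 genes (not Dusp4 and Spry4), the forkhead, HNF4, ETS and AP-1 motifs were found in 0 of 8, where 3.65%, 0.475%, 8.86% and 7.81% of all promoters hold them. A CRE match holds no AP-1 match. Stretches of partners are shown above only where a forkhead or HNF4 match was found. Of the 21 named partners in all 4 lists that were searched whole, 12 held the forkhead motif and 15 the AP-1 motif. They were searched over more than the middle 1000 bases, and no share over other whole anchors was computed, so these counts have no background. A match is a run of letters and does not show binding.

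Other genes of the pathway were counted the same way from a list of 52 receptors, adaptors, RAS proteins, kinases, further inhibitors, transcription factors and targets. Of these, 44 had an anchor at a start, with medians of 13, 10, 8 and 11 loops in the 4 lists. The growth factor receptor gene Erbb2 had the most in FOXA1 liver mets, 62, with 61, 41 and 52 in the other lists. For FOXA1, 9 of the 36 genes with enough loops were past 1.5 times toward liver mets, a share near the 25.3% over all protein-coding genes, and 1 toward tumor, where the share over all genes was 8.62%. Among the former were the receptor gene Fgfr2 (14 against 5) and the exchange factor genes Sos1 (14 against 7) and Sos2 (13 against 7), and the latter was the phosphatase gene Dusp8 (3 against 9). For HNF4G, 4 of 35 were past it toward liver mets and 9 toward tumor, beside 15.6% and 19.3% over all genes. Fgfr2 (7 against 13), Fgfr3 (4 against 12) and Dusp8 (4 against 8) were among those toward tumor, and Hras (14 against 8) and Sos1 (7 against 4) among those toward liver mets. Between the factors, 21 of 37 were past it toward FOXA1 and 3 toward HNF4G in liver mets, beside 52.3% and 3.63% over all genes, and 9 and 5 of 35 in tumor, beside 34.8% and 8.17%. In liver mets Nf1, the gene of neurofibromin, had 12 FOXA1 and 3 HNF4G loops, whereas the receptor gene Egfr had 5 and 8 and the ubiquitin ligase gene Cbl 7 and 11. In tumor the phosphatase gene Dusp16 had 14 FOXA1 and 5 HNF4G loops, and Fgfr3 had 4 and 12.

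Outside the pathway, the protein-coding genes whose loop numbers were most like those of Dusp1 over the 4 lists were Dagla, with 55, 65, 42 and 42 loops, Sp2, with 58, 56, 38 and 42, and AI413582, with 59, 50, 45 and 45. Likeness was the Euclidean distance of log2(loops + 1) over the 4 lists, 0.16, 0.24 and 0.28. AI413582 lies beside Hmga1, at the far end of the 996 kb loop of the anchor shared by Dusp1 and Ergic1.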

How the data were processed

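Each of the 4 groups had 1 deposited loop list covering its 2 replicates, and how the replicates were joined is not stated. According to the submitters' processing notes and the study's methods, reads were mapped to mm10 (GRCm38) with HiC-Pro 3.1.0 at default settings, assigned to DpnII fragments and stripped of duplicates, and loops were called with hichipper. The value per loop deposited by the authors has no name and was read as a −log10 adjusted p, from its ties and its top of 20. No use was made of the display score that the authors deposited beside it. The number of paired reads behind a loop was not used here, and the precision that depth sets is unknown. Anchors of different lists were identical or did not overlap, so that shared loops had both anchors identical. Starts came from GENCODE M21, promoter sequences from RefSeq GRCm38.p6. The span is the distance between anchor midpoints.

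Counts had exact Poisson intervals, ratios exact (Clopper-Pearson) intervals given the sum, and shares Wilson intervals (SciPy 1.17.1, pandas 2.3.3, Python 3.11.15). A gene was past the fold when loop numbers differed by at least 1.5 times with at least 10 loops in both lists together. All 10 genes are described. For each, up to 3 partners in all 4 lists are named by their lowest value, together with the longest loop in 2 or more lists, and other partners, chosen after their values were seen, where 1 list stood apart. Pathway genes named were to be the largest folds in each direction, and Erbb2 was added after its values were seen. The values of 1 pathway gene are not reported here. The genes, lists and motifs were chosen with earlier results of these data known. Alternatives changed the distance to the start, the start used, the minimum value and span, the fold, the minimum number of loops and the width of the anchors, or left out each gene in turn. Dusp1 without the anchor shared with Ergic1 was added after seeing the data.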

Additional observations from a re-analysis of the deposited data

Results flagged for a closer look

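Loop numbers at Errfi1 moved apart for the factors, with a liver mets to tumor ratio on opposite sides of 1, 1.92 for FOXA1 (23 against 12 loops) and 0.769 for HNF4G (10 against 13). For Dusp1 it was 0.915 for FOXA1 and 1.02 for HNF4G. These differences were not tested, as each group has 1 list, and all 4 intervals include 1.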

How the results depend on the processing

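No paired analysis was possible because each group has 1 loop list that covers both replicates. A start of the gene as a whole only, an anchor overlapping the start, a minimum span of 20 kb, and Dusp1 without the anchor shared with Ergic1 (chosen after seeing the data) kept counts within 1.5 times and ratios, shares and spans within their main intervals. Within these limits, the span minimum gave 3 genes in place of 2 past the fold toward liver mets for FOXA1, and 4 in place of 3 toward FOXA1 in liver mets. Dusp1 without the shared anchor gave 4 in place of 3 toward FOXA1 in tumor, and the first pair of settings 2. As a ratio of shares the FOXA1 ratio of 1.16 became 0.964, on the other side of 1. With a value of 2 or more, loops numbered 39 and 19 for FOXA1 in liver mets and tumor and 26 and 18 for HNF4G, the FOXA1 ratio became 2.05, loops in all 4 lists fell to 7.46% and those in 1 list rose to 73.1%. The HNF4G tumor median span became 171 kb. Genes past the fold then numbered 1 toward liver mets and 0 toward tumor for each factor, and 1 toward each factor in each context. With anchors widened by 5 kb, 35.1% of loops were in all 4 lists and 29.1% in 1. Anchors within 5 kb of a start gave 5 genes past the fold toward FOXA1 in each context. A fold of 2 gave 0 in either direction for FOXA1 between contexts, 1 toward FOXA1 and 0 toward HNF4G in liver mets, and 0 toward FOXA1 in tumor. The fold of shares gave 1 toward liver mets for FOXA1, 0 toward FOXA1 and 2 toward HNF4G in liver mets, and 0 toward FOXA1 in tumor. At least 20 loops gave 0 toward tumor for FOXA1, 0 toward liver mets for HNF4G, 0 toward HNF4G in liver mets and 1 toward FOXA1 in tumor. A stricter minimum tests fewer genes. For the other settings the cause was not tested. Under these settings no share over all protein-coding genes was computed, so the counts of genes and the list shares have no background. In the main setting 52.3% of all genes in liver mets and 34.8% in tumor were past the fold toward FOXA1.

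Leaving out each gene in turn gave 139 to 189, 107 to 161, 96 to 138 and 81 to 122 loops in the 4 lists, ratios of 1.10 to 1.30 for FOXA1 and 1.08 to 1.19 for HNF4G, 11.6% to 14.6% in all 4 lists and 47.2% to 56.3% in 1 list. Without Dusp1 the FOXA1 interval, 1.00 to 1.69, lay just above 1. The lowest loop numbers and the lowest share in 1 list, 107 and 81 loops in the FOXA1 and HNF4G tumor lists and 47.2%, were those without Dusp1. Depth is unknown and limits every absence: a loop that is not in a list was not called there, which does not show that the contact is absent.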
